A study of Mus musculus with 19 samples.

Results

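The peroxisome proliferator-activated receptors (PPARs) and the genes through which they set fatty acid use were followed in mouse quadriceps, through 9 genes, the receptors Ppara and Ppard and the targets Cd36, Fabp3, Cpt1b, Acot1, Pdk4, Ucp3 and Angptl4. They were found by gene name among the spots of an Agilent array that are not controls, and are 9 of the 24741 gene names with a tested probe. The 9 genes are read by 14 probes, all of which passed the filter on dim probes, stood well above background on all 19 arrays and were saturated on none. Ppara has 3 probes, Cpt1b, Fabp3 and Ucp3 have 2 each, and the other genes have 1.

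The samples were total RNA of quadriceps from male C57Bl6J congenic mice of 180 days, either wild type (CTR) or AR113Q. AR113Q mice are a knock-in model of spinal and bulbar muscular atrophy (SBMA): every cell that uses the androgen receptor gene makes it with an expanded polyglutamine tract, so muscle, nerve and other tissues all carry the mutation. From 40 days of age the mice ate either of 2 purified diets, normal chow (NCD, D12450B) or one high in fat (HFD, D12451). On the NCD there were 5 CTR and 5 AR113Q samples, and on the HFD 4 CTR and 5 AR113Q samples. The labels do not say whether each sample was 1 mouse, and p-values therefore measure the spread between these samples.

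PPARs are nuclear receptors that bind fatty acids and their derivatives. Bound to a retinoid X receptor (RXR) partner, they sit at DNA sites near genes for fatty acid uptake, binding, mitochondrial entry and oxidation, and recruit coactivators that raise transcription. In skeletal muscle, Ppard is the receptor most associated with oxidative fibers, endurance training and fasting, and Ppara shares many of its targets. Cd36 takes fatty acids into the cell, Fabp3 carries them in the cytosol, Cpt1b admits their acyl groups to the mitochondrion, Acot1 splits acyl-CoA back to free fatty acid, Pdk4 shuts the pyruvate dehydrogenase complex and so spares glucose, Ucp3 is an inner-membrane carrier that rises when fatty acid supply is high, and Angptl4 is a secreted inhibitor of lipoprotein lipase.

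For genes read by several probes, the probe decides what can be seen, so the stretches that were hybridised are shown first. Each probe has 60 bases, of which the first 30 are printed 5′ to 3′ as the array files give them, with positions in the array design's mouse build mm9. The files do not say whether a probe lies in coding or untranslated sequence. The 3 Ppara probes lie at chr15:85632110-85632169 (probe 1), chr15:85632534-85632593 (probe 2) and chr15:85637193-85637252 (probe 3), all on the plus strand, and start at bases 2273, 2697 and 7356 of the transcript. They share no base, and they are numbered here from the brightest to the dimmest.
Ppara probe 1: ctttgaaaacctacaagtcaaggtgtggcc
Ppara probe 2: aaatgctcctctaggcccctcctttggcag
Ppara probe 3: cctgtaagctgatgaatgtaaagagttaat
The 2 Cpt1b probes lie 270 bases apart on the minus strand, probe 1 at chr15:89246836-89246895 and probe 2 at chr15:89247106-89247165. The array files also assign them to a readthrough transcript that runs from Chkb into Cpt1b, so signal of the 2 transcripts cannot be told apart.
Cpt1b probe 1: ttggagagcgctgtccaacctctcatgtgc
Cpt1b probe 2: tgctcctctagggcccccgctggaggtggg
The 2 Fabp3 probes, at chr4:129992652-129992711 and chr4:129992643-129992702 on the plus strand, share 51 of their bases. The 21 bases that both printed stretches hold are in capitals, and the 2 probes are not separate evidence.
Fabp3 probe 1: TAAAACTGTATCCAAAGGGTGctccaaggt
Fabp3 probe 2: tttatttttTAAAACTGTATCCAAAGGGTG
The other probes lie at chr17:28438298-28438357 (Ppard, plus strand), chr6:5433441-5433500 (Pdk4, minus), chr7:107634291-107634350 and chr7:107630399-107630458 (Ucp3 probes 1 and 2, plus), chr17:33911880-33911939 (Angptl4, minus), chr5:17288600-17288659 (Cd36, minus) and chr12:85358561-85358620 (Acot1, plus). Acot1 has close paralogs, and whether its probe also binds their transcripts was not tested.

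Values below are log2 signals relative to the 75th percentile of each array, so that 0 is the level of a probe brighter than 75% of all probes. Levels are compared between groups for the same probe and never between probes. Where a gene has several probes, counts use its brightest probe. Differences were tested with limma across all probes, with Benjamini-Hochberg adjusted p-values and a threshold of 0.05. The 19 arrays lay on 5 slides, each slide holding groups of both genotypes, and the fit with slide as a block is given where it changes a call.

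On the NCD, the 2 genes that passed the threshold in AR113Q muscle were the receptors. With each gene read by its brightest probe, Ppara rose 2.22-fold and Ppard 1.17-fold in AR113Q-NCD against CTR-NCD, while none of the 7 targets passed the test. This was 2 of 9 genes, beside 17.4% of all genes called in the same comparison, a share close to that of the members. The sizes of the log2 differences did not part receptors from targets. Acot1 was at 1.13 beside 1.15 for Ppara, and Cpt1b at 0.27 beside 0.23 for Ppard. In total, 8 of the 9 genes lay above 0 with a median log2 difference of 0.33, against a median of -0.057 over all genes tested, of which 42.1% lay above 0. In whole muscle, a change in how many cells of a kind are present and a change in RNA per cell cannot be told apart.

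Ppara probe 1 read 1.97, 0.87, 1.83, 0.61 and 0.98 in the 5 CTR-NCD samples and 2.09, 2.76, 2.34, 2.74 and 2.07 in the 5 AR113Q-NCD samples. The lowest AR113Q-NCD sample lay above the highest CTR-NCD sample, and 3 of the 5 controls fell under 1. The log2 difference was 1.15 ± 0.37 (SE, 95% interval 0.36 to 1.94, limma adjusted p = 0.0428), with a two-sided exact permutation p of 0.00794, the smallest that 5 against 5 samples can give. It was positive on all 5 slides, from 0.13 to 2.13, and with slide as a block the adjusted p was 0.0598, which ends the call. When the 19 samples were left out in turn, the call was kept 6 times, without CTR-NCD replicate 1 or 3, CTR-HFD replicate 3 or 4, or AR113Q-HFD replicate 3 or 5, and lost 13 times, with adjusted p-values up to 0.111.

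The probes of Ppara did not read alike. Probe 3, which lies 5083 bases downstream of probe 1 on the transcript, followed it closely, with r = 0.96 over 19 arrays after group means were removed. In the same samples probe 3 read -0.44, -0.78, -0.6, -1.78 and -1.36 in CTR-NCD and -0.16, 0.43, 0.12, 0.28 and -0.29 in AR113Q-NCD. Its difference was 1.07 ± 0.36 (SE, limma adjusted p = 0.04998, just under the threshold), again without overlap between the groups, and with slide as a block the adjusted p was 0.0632, which ends this call too. Probe 2 lies between them, 424 bases from probe 1. There the 5 CTR-NCD samples gave 0.77, 0.089, 0.54, 0.42 and -0.008 and the 5 AR113Q-NCD samples 0.63, 0.54, 0.53, 0.64 and -0.092. The groups overlapped, and the difference was 0.086 ± 0.24 (SE, 95% interval -0.43 to 0.60, limma adjusted p = 0.870). The rise of Ppara on the NCD thus appears on the probes at either end of this stretch and was not seen on the probe between them.

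**Figure D1:**
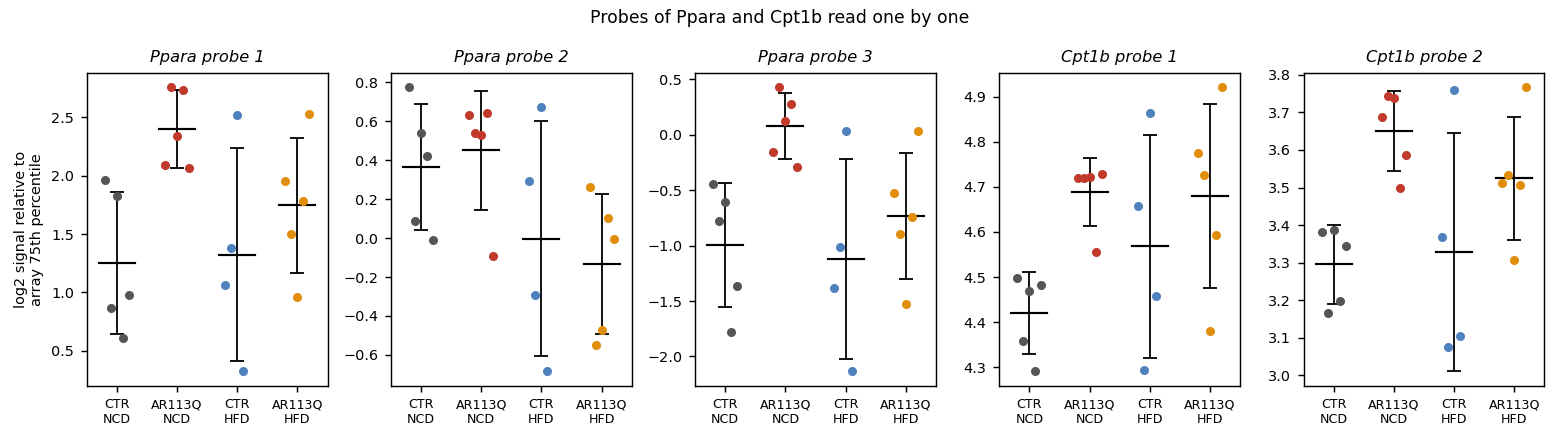
Each point is 1 array and each panel 1 probe of Ppara or Cpt1b, with log2 signal relative to the array's 75th percentile on the y axis and the 4 groups on the x axis. Bars mark the group mean and whiskers the SD. The AR113Q-NCD samples lie above all CTR-NCD samples on Ppara probes 1 and 3 and on both Cpt1b probes, and among them on Ppara probe 2.

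Ppard, the other receptor, moved less and with a much smaller spread. The signals were 1.93, 1.93, 2.01, 1.76 and 2.07 in CTR-NCD and 2.24, 2.18, 1.99, 2.14 and 2.28 in AR113Q-NCD. Only the AR113Q-NCD sample at 1.99 lay inside the range of the controls. The log2 difference was 0.23 ± 0.075 (SE, 95% interval 0.069 to 0.39, limma adjusted p = 0.0455; 4 of 5 slides positive), and with slide as a block the adjusted p was 0.0349. Of the 19 samples left out in turn, 7 kept the call (CTR-NCD replicate 5, AR113Q-NCD replicate 3, CTR-HFD replicates 1, 2 and 3, and AR113Q-HFD replicates 2 and 4) and 12 ended it, with adjusted p-values up to 0.125.

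Cpt1b, the gate of the mitochondrion, came nearest among the targets. Probe 1 read 4.5, 4.36, 4.47, 4.29 and 4.48 in CTR-NCD and 4.72, 4.72, 4.72, 4.55 and 4.73 in AR113Q-NCD, and probe 2 read 3.38, 3.17, 3.39, 3.2 and 3.34 and 3.69, 3.74, 3.74, 3.5 and 3.59. The groups did not overlap on either probe. Probe 1, the brighter, differed by 0.27 ± 0.11 (SE, limma adjusted p = 0.0933), and probe 2 by 0.36 ± 0.12 (SE, limma adjusted p = 0.0424), each positive on all 5 slides. The call for this gene therefore depends on which probe is read, and it counts as not called here. Probe 1 passed with quantile normalization (0.37, limma adjusted p = 0.0215), with array weights (0.27, 0.0458) and with only the groups compared in the fit (0.27, 0.0236).

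Cd36, the membrane fatty acid transporter, likewise separated the groups without passing the test. CTR-NCD samples gave 2.33, 2.25, 2.33, 2.0 and 1.66 and AR113Q-NCD samples 2.45, 2.59, 3.05, 2.44 and 2.46. All 5 AR113Q-NCD samples exceeded every control, with a log2 difference of 0.49 ± 0.25 (SE, 95% interval -0.052 to 1.02, limma adjusted p = 0.229). In the exact permutation test of this gene alone, two-sided, p was 0.00794. The limma error is shared over all 4 groups, and the 4 CTR-HFD samples of Cd36 had an SD of 0.75 against 0.29 in CTR-NCD and 0.26 in AR113Q-NCD. Over 30 alternatives, which include fits without CTR-HFD samples, Cd36 was called in 0, with limma adjusted p-values of 0.0547 to 0.443. Why the permutation and limma results differ was not tested.

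Acot1 and Angptl4 had the wider gaps among the uncalled targets. Acot1 read -1.44, -1.05, -1.61, -2.45 and -3.12 in CTR-NCD and -0.93, -0.53, -0.5, -1.11 and -0.97 in AR113Q-NCD, a log2 difference of 1.13 ± 0.57 (SE, 95% interval -0.074 to 2.33, limma adjusted p = 0.208; 5 of 5 slides positive). The AR113Q-NCD samples lay close together, while the controls spread over more than 2 log2 units. Angptl4 read 1.93, 2.91, 2.7, 3.26 and 2.38 in CTR-NCD and 3.43, 2.54, 3.82, 3.14 and 3.56 in AR113Q-NCD, a difference of 0.66 ± 0.29 (SE, limma adjusted p = 0.132; 3 of 5 slides positive). Without AR113Q-NCD replicate 2, the lowest of its group, the adjusted p of Angptl4 was 0.0494.

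Pdk4, Fabp3 and Ucp3 showed no detectable difference between the genotypes on the NCD. Pdk4, the glucose-sparing kinase, read 6.43, 6.7, 6.66, 6.45 and 6.27 in CTR-NCD and 6.44, 6.36, 6.79, 6.54 and 6.45 in AR113Q-NCD. The ranges coincided almost entirely, with a difference of 0.015 ± 0.23 (SE, 95% interval -0.47 to 0.50, limma adjusted p = 0.979), whose sign turned under 4 of 30 other settings. Fabp3 probe 1 read 7.65, 7.56, 7.55, 6.63 and 6.71 in CTR-NCD and 7.54, 7.66, 7.72, 7.57 and 7.28 in AR113Q-NCD. CTR-NCD replicates 4 and 5 were low for this cytosolic carrier, the other 3 controls matched the AR113Q-NCD samples, and the difference was 0.33 ± 0.27 (SE, 95% interval -0.24 to 0.90, limma adjusted p = 0.482). Ucp3 probe 1 read 1.86, 2.04, 1.89, 1.63 and 2.02 in CTR-NCD and 1.84, 1.58, 1.8, 1.47 and 1.73 in AR113Q-NCD, a difference of -0.21 ± 0.16 (SE, 95% interval -0.54 to 0.12, limma adjusted p = 0.442). It was the only gene of the 9 with a value below 0 in this comparison, negative on all 5 slides, and Ucp3 probe 2 gave -0.080 ± 0.14 (SE, limma adjusted p = 0.781).

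**Figure D2:**
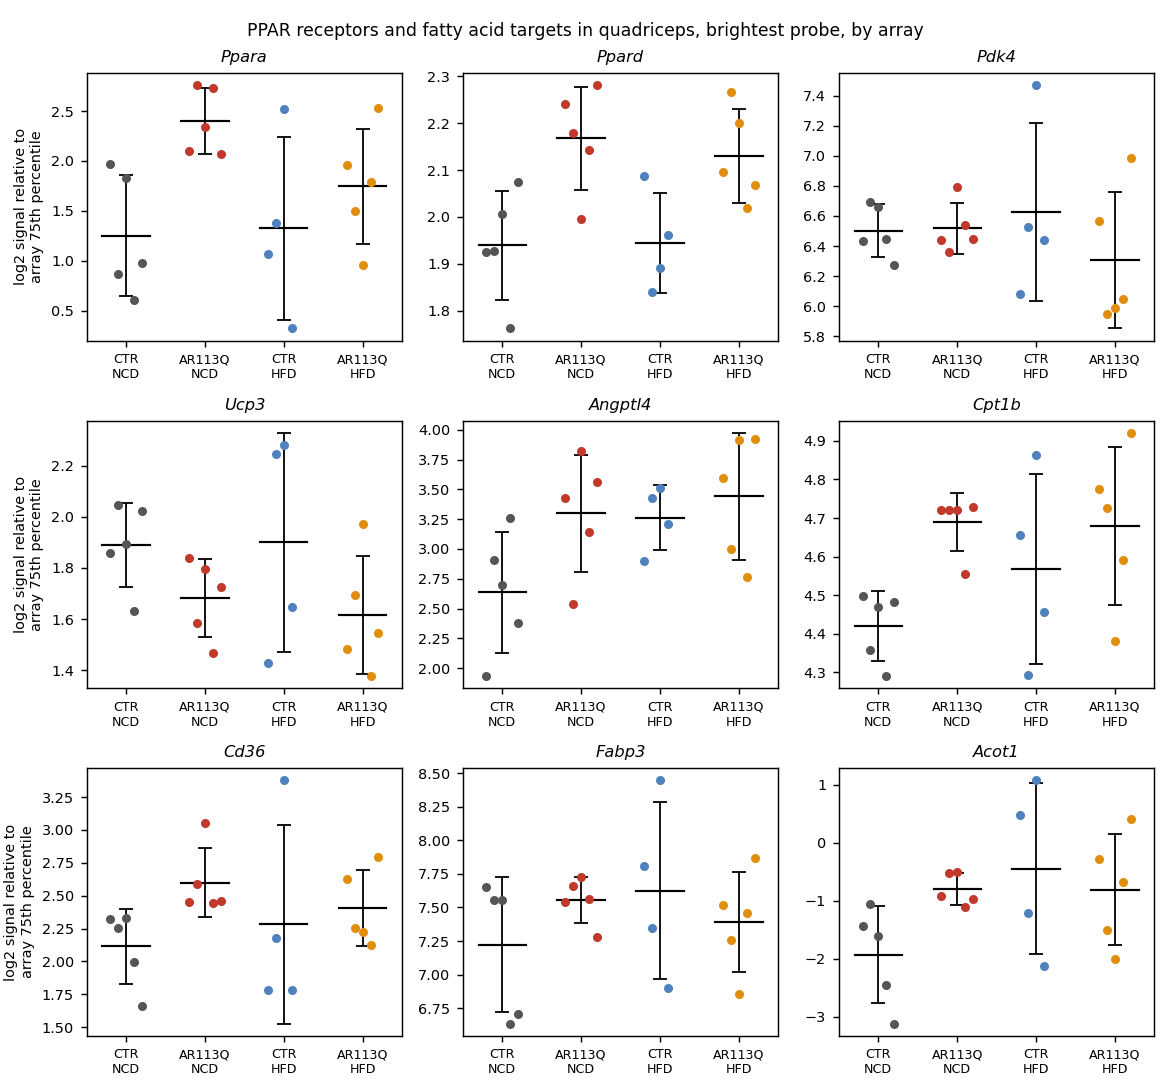
Signals of the 9 genes by array, each read by its brightest probe. Points are arrays, horizontal bars group means and whiskers SDs, and the y axis is log2 signal relative to the array's 75th percentile, on its own range in each panel. The 4 CTR-HFD samples spread widely for Ppara, Pdk4, Cd36, Fabp3 and Acot1, and replicate 3 was the highest of them for every gene but Ppard.

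On the HFD, the same comparison called none of the 9 genes. In AR113Q-HFD against CTR-HFD limma gave 0 members past the threshold, beside 17.9% of all genes, and 1 member, Ppard, had an unadjusted p under 0.05. Ppard read 2.09, 1.84, 1.89 and 1.96 in CTR-HFD and 2.1, 2.27, 2.2, 2.02 and 2.07 in AR113Q-HFD, a difference of 0.19 ± 0.080 (SE, limma adjusted p = 0.130), positive on all 4 slides that hold a sample of each group. This value is close to that on the NCD. Ppara probe 1 read 1.07, 1.38, 2.52 and 0.32 in CTR-HFD and 1.96, 1.5, 0.96, 1.79 and 2.53 in AR113Q-HFD. The groups overlapped over most of their range, with a difference of 0.42 ± 0.40 (SE, 95% interval -0.42 to 1.26, limma adjusted p = 0.543). Ppara probe 2 gave -0.13 ± 0.26 (SE, limma adjusted p = 0.798) and Ppara probe 3 0.39 ± 0.38 (SE, 0.559).

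The remaining genes had values on both sides of 0 on the HFD. Cpt1b probe 1 differed by 0.11 ± 0.11 (SE), Cd36 by 0.13 ± 0.27 and Angptl4 by 0.18 ± 0.30, while Ucp3 probe 1 gave -0.28 ± 0.17, Pdk4 -0.32 ± 0.24, Fabp3 probe 1 -0.23 ± 0.29 and Acot1 -0.37 ± 0.60, with limma adjusted p-values from 0.286 to 0.815. For all 7 of these genes except Angptl4, the SD was largest in CTR-HFD. Acot1 read 0.48, -1.21, 1.07 and -2.13 in its 4 samples and -0.28, -1.5, -2.01, -0.68 and 0.4 in the 5 AR113Q-HFD samples, and Pdk4 read 6.08, 6.53, 7.47 and 6.44 and 6.56, 5.94, 5.98, 6.05 and 6.98. In CTR-HFD, replicate 3 had the highest signal of Ppara, Pdk4, Cd36, Fabp3 and Acot1.

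That sample also stood apart in genes of slow fibers, the oxidative fiber type, and of other cells. The summed level of 7 slow fiber genes, on the linear scale relative to the 75th percentile, was 433.4 in CTR-HFD replicate 3 and 4.89 to 24.7 in the other 3 CTR-HFD samples. All 7 stood above background on every array. The summed level of 3 red blood cell genes was 168.9 in this sample and 30.03 to 70.2 in the other 3, and that of 6 endothelial genes 19.3 and 13.9 to 15.7, both the highest of the 19 arrays. Without this sample, Ppara gave 0.82 (limma adjusted p = 0.143), Cd36 0.49 (0.0948), Pdk4 -0.044 (0.918) and Acot1 0.14 (0.910) in AR113Q-HFD against CTR-HFD, and Cpt1b probe 2 gave 0.34 (0.0265) against 0.20 (0.320) with it. The part of fiber composition, blood or vessels in these values was not tested.

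**Figure D3:**
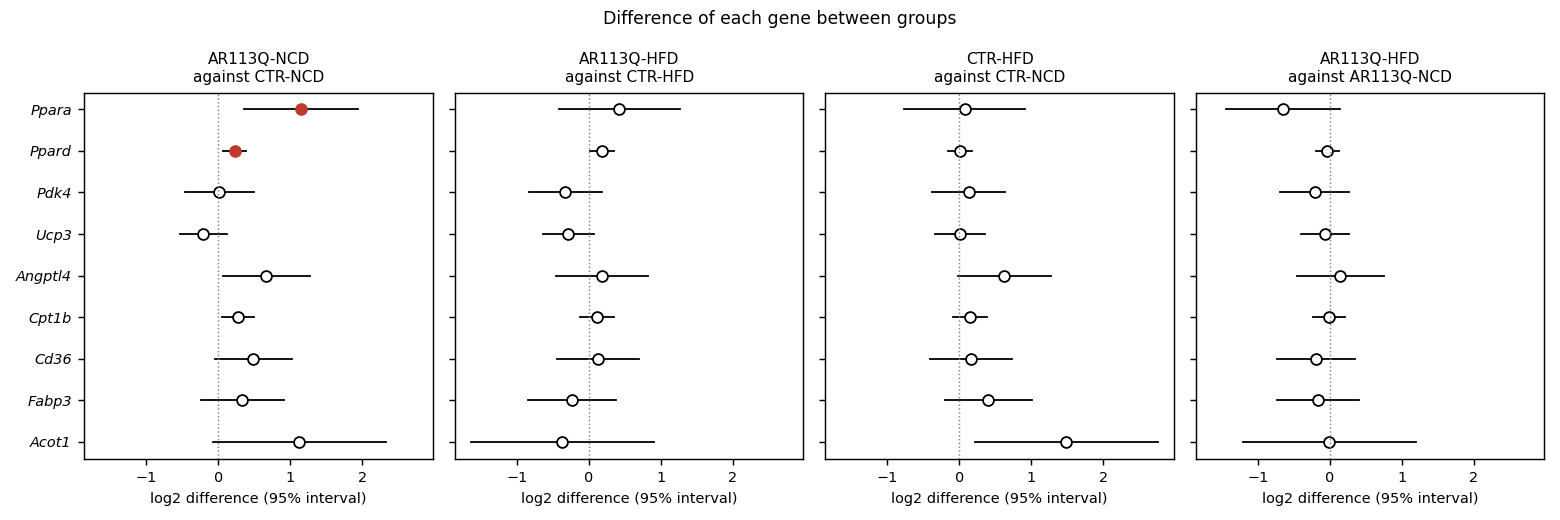
Log2 differences (points) and 95% intervals (lines) of the 9 genes in 4 comparisons from the limma fit, each gene read by its brightest probe. Filled points have an adjusted p under 0.05: Ppara and Ppard in AR113Q-NCD against CTR-NCD. The intervals of the diet comparisons include 0 except that of Acot1 in controls, whose adjusted p is 0.521.

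Over both diets together, the same 2 receptors were called. This average includes the NCD comparison on the same samples, so its calls are not independent of that one. AR113Q against CTR averaged over diets called 2 of the 9 genes, beside a larger share of all genes, 29.1%. Ppara was at 0.79 ± 0.27 (SE, limma adjusted p = 0.0387) and Ppard at 0.21 ± 0.055 (SE, limma adjusted p = 0.00831). With slide as a block, Ppard kept its call (0.00515) and Ppara did not (0.0526). Ppard kept it without any 1 of the 19 samples, and Ppara in 7 of 19 cases (up to 0.0906). These Ppara values are of probe 1. Ppara probe 3 passed with 0.73 ± 0.26 (SE, 0.0452), but not with slide as a block, and Ppara probe 2 gave -0.022 ± 0.18 (SE, 0.944). Cpt1b probe 2 passed with 0.28 ± 0.084 (SE, 0.0195) where probe 1 gave 0.19 ± 0.077 (SE, 0.0744). Without CTR-HFD replicate 3 the count was 4 of 9, with Cpt1b probe 1 at 0.24 (0.0174) and Cd36 at 0.49 (0.00790) added. The share of all genes called without this sample is not given, so the higher count cannot be read as particular to the 9 genes. Ucp3 probe 1 was at -0.25 ± 0.11 (SE, 0.123), and passed without CTR-HFD replicate 1 (-0.32, 0.0295). The values in parentheses are limma adjusted p-values.

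The diet itself left the 9 genes without a call in either genotype. In CTR-HFD against CTR-NCD limma called 0 members and 0% of all genes. The single member with an unadjusted p under 0.05 was Acot1, at 1.49 ± 0.60 (SE, 95% interval 0.21 to 2.76, limma adjusted p = 0.521). Of its 4 CTR-HFD samples, replicates 1 and 3 were above all CTR-NCD samples and replicates 2 and 4 within their range. Angptl4, a gene known to respond to dietary fat, read 2.9, 3.43, 3.51 and 3.21 in CTR-HFD, against 1.93 to 3.26 in CTR-NCD, a difference of 0.63 ± 0.30 (SE, 95% interval -0.014 to 1.27, limma adjusted p = 0.589), positive on all 4 slides with both groups. Pdk4 differed by 0.13 ± 0.24 (SE, 95% interval -0.38 to 0.64) and Ucp3 probe 1 by 0.010 ± 0.17 (SE, 95% interval -0.34 to 0.36).

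In AR113Q mice, the HFD was compared with the NCD in 5 samples each. Limma called 0 of the 9 genes in AR113Q-HFD against AR113Q-NCD, beside 0.0202% of all genes, and none by its brightest probe had an unadjusted p under 0.05. Ppara probe 1 gave -0.65 ± 0.37 (SE, 95% interval -1.45 to 0.14, limma adjusted p = 0.821), with probe 2 at -0.58 ± 0.24 (0.689) and probe 3 at -0.81 ± 0.36 (0.724). The unadjusted limma p-values of Ppara probes 2 and 3 were 0.0283 and 0.0387, beside 6.67% of all genes under 0.05. Here, unlike in the genotype comparison, the 3 probes of Ppara had similar values. Ppard gave -0.038 ± 0.075, Angptl4 0.14 ± 0.29 and Acot1 -0.0056 ± 0.57 (SE). Averaged over genotypes, HFD against NCD called 0 of the 9 genes, beside 0.0243% of all genes, with 0 members under an unadjusted p of 0.05 by the brightest probe. Ppara probe 2 was at -0.48 ± 0.18 there (SE, limma adjusted p = 0.348).

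AR113Q-HFD against CTR-NCD, which combines genotype and diet, called 0 of the 9 genes, beside 21.1% of all genes, and 3 had an unadjusted limma p under 0.05. Angptl4 came nearest, reading 3.6, 3.0, 3.92, 2.77 and 3.93 in AR113Q-HFD, with 0.81 ± 0.29 (SE, limma adjusted p = 0.0547), and passed with slide as a block (0.0485). Ppard was at 0.19 ± 0.075 (SE, 0.0865) and Cpt1b probe 1 at 0.26 ± 0.11 (SE, 0.0951). The Ppara probes differed in sign, with probe 1 at 0.50 ± 0.37 (SE, 0.406), probe 2 at -0.50 ± 0.24 (SE, 0.172) and probe 3 at 0.26 ± 0.36 (SE, 0.678). This comparison uses the same CTR-NCD samples as the NCD one, so their values are not independent.

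Whether the genotype difference itself changed with diet was tested by the interaction. It called 0 of the 9 genes and 0% of all genes, with 0 members under an unadjusted limma p of 0.05 and adjusted p-values of 0.9997. All 9 interaction values were below 0, that is, the signed AR113Q minus CTR value was lower on the HFD than on the NCD, from -0.043 ± 0.11 (SE) for Ppard to -1.49 ± 0.83 (SE) for Acot1. Ppara was at -0.73 ± 0.55 (SE). The median over the 9 genes was -0.36, against -0.020 over all genes, of which 45.6% had a value above 0. With single samples left out in turn, Cd36 ran from -0.53 to 0.0050, Ppara from -1.06 to -0.33 and Pdk4 from -0.52 to -0.059. The highest value of each was the one without CTR-HFD replicate 3. Ppard and Ucp3 probe 1 also changed sign, each in 2 of 29 alternatives. The 9 values rest on the same 19 samples and are not independent of each other, and a loss of the call for Ppara on the HFD is thus not shown to be a difference between diets.

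The signal of several of the 9 genes followed that of slow fiber genes from sample to sample. Mean log2 signal of the 7 slow fiber genes on the NCD ranged from 0.35 to 4.71 among controls and from 4.54 to 5.67 among AR113Q samples, and on the HFD from -1.39 to 4.95 and from -0.013 to 4.29. The AR113Q-NCD samples were the only group without a sample under 4.5. On the NCD these 7 genes lay 1.66 (Atp2a2) to 2.55 (Myh7) above the controls and none passed the limma test, with adjusted p-values of 0.0628 to 0.306. After group means were removed, the 19 arrays gave r = 0.88 and rho = 0.89 for Fabp3 (permutation p = 3e-05 and 3e-05) and r = 0.89 and rho = 0.92 for Acot1 (permutation p = 0.00021 and 1e-05). Both held without the 2 most extreme arrays, CTR-HFD replicates 3 and 4, with r of 0.81 and 0.83.

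Ppara, Pdk4, Cd36 and Cpt1b probe 1 gave r of 0.72, 0.74, 0.72 and 0.69 and rho of 0.60, 0.61, 0.63 and 0.61 with the slow fiber genes. Over the 9 relations tested, their adjusted permutation p-values for r were 0.0179, 0.0179, 0.0179 and 0.0287, and those for rho were 0.0480 for all 4. Leaving out the same 2 arrays lowered r to 0.53 (unadjusted permutation p = 0.0895) for Ppara, 0.62 (0.0277) for Pdk4, 0.50 (0.0676) for Cd36 and 0.57 (0.0573) for Cpt1b. Without CTR-HFD replicate 3 alone, r was 0.57 for Ppara, 0.56 for Pdk4, 0.50 for Cd36 and 0.54 for Cpt1b. The relations of all 4 genes thus rest in part on CTR-HFD samples. With slide removed as well as group, r was 0.70 to 0.76 for these 4 genes and 0.90 for Fabp3 and Acot1. Ppard (r = -0.21, rho = -0.28), Ucp3 (0.12, 0.070) and Angptl4 (0.056, 0.067) showed no such relation, with adjusted permutation p-values of 0.552 to 0.812 for r. Each slide holds at most 4 arrays, too few for values within slides. The signals compared come from the same arrays.

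**Figure D4:**
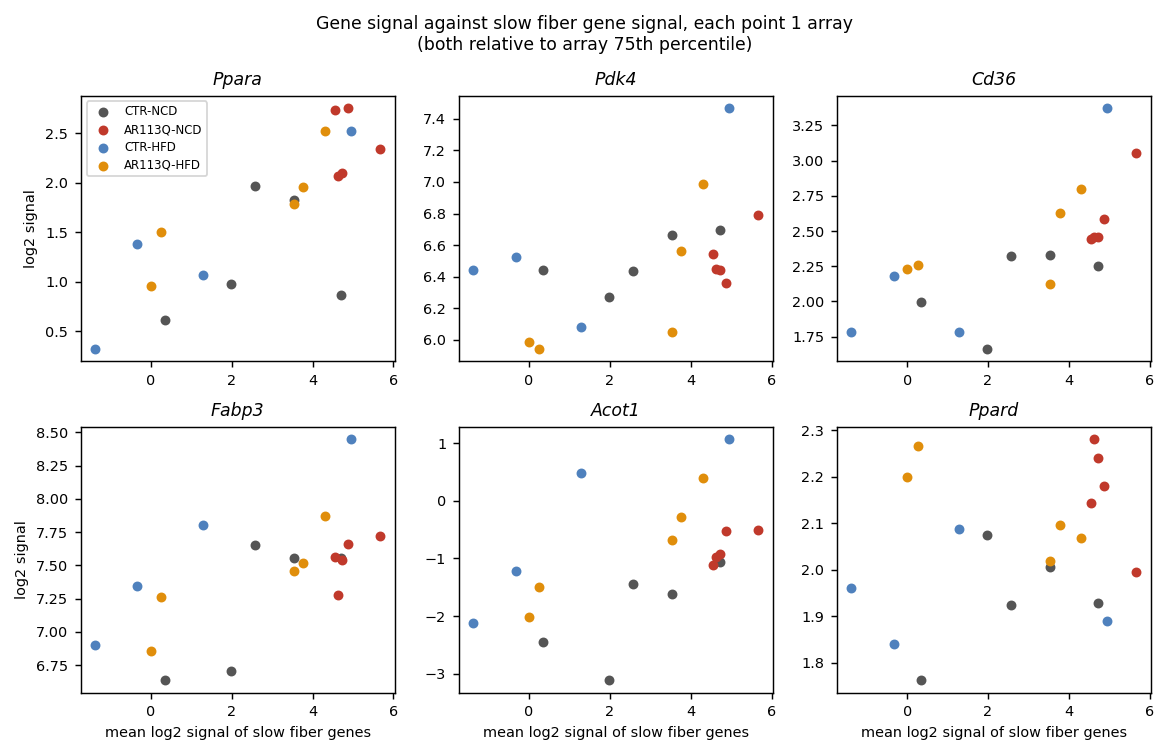
Signal of 6 of the genes (y axis, log2 relative to the array's 75th percentile) against the mean log2 signal of 7 slow fiber genes (x axis), with 1 point per array, coloured by group. Fabp3 and Acot1 rise along the x axis within groups, while Ppard does not, and the 5 AR113Q-NCD samples all lie to the right of 4.5.

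The genes whose signal across samples was most like that of Ppara were Myh1, the IIX fast myosin heavy chain (r = 0.95), Wfs1, an endoplasmic reticulum membrane protein (0.94), Prkg1, a cGMP-dependent kinase (0.93), Etfb, an electron carrier of fatty acid oxidation (0.92), and Sdhb, a subunit of succinate dehydrogenase (0.92). These are Pearson values over 19 arrays after group means were removed, the highest of 17791 genes. For Pdk4 the nearest were Cerk (0.93), Hspa4l (0.92), Tm6sf1 (0.90), Slc7a1 (0.89) and Cd36 (0.89), the last being another of the 9. They were picked as the highest values and are given without a test.

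Markers of other tissues were read beside these values. Of 6 skeletal muscle genes, all stood above background on all arrays, and 5 fell in the NCD genotype comparison, as did 6 of 7 fast fiber genes, the 2 lists sharing 3 genes that fell (Myh4, Mylpf and Tnnt3). White adipocyte genes, 8 in number, included 0 called in this comparison, with a summed level from 76.7 to 213.6 among NCD controls and 91.8 to 152.6 among AR113Q-NCD samples, and from 71.6 to 146.5 and 60.2 to 200.7 on the HFD. Cd36 and Angptl4 are also made by fat cells. The brown adipocyte genes Ucp1 and Cidea together gave 0.54 to 1.39 in CTR-NCD and 1.37 to 30.8 in AR113Q-NCD, the highest in AR113Q-NCD replicate 2. Ucp1 was not above background in any of the 4 CTR-HFD samples. Only 1 of the 2 genes was above background in CTR-NCD replicates 1 to 3 and AR113Q-HFD replicates 2 to 4. The CTR-NCD range therefore includes values below background. The brown adipocyte gene Elovl3 did not pass the filter. Endothelial (12.9 to 17.8 in the NCD groups) and macrophage (9.47 to 15.995) sums overlapped between genotypes, with 1 of 6 endothelial genes lower in AR113Q-NCD. The part of these cells in the values of the 9 genes was not tested.

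Among the partners and coregulators of the receptors, the share of genes called was near that of all genes. Of 16 genes, 1 rose and 3 fell in AR113Q-NCD against CTR-NCD, beside 17.4% of all genes called, 0 rose and 4 fell in AR113Q-HFD against CTR-HFD, beside 17.9%, and 0 were called in either diet comparison within a genotype. The RXR partner most used in skeletal muscle, Rxrg, fell by 0.98 ± 0.17 (SE, limma adjusted p = 0.000655) on the NCD and by 0.93 ± 0.18 (SE, 0.00166) on the HFD. On the NCD it ranged from 4.78 to 5.38 in the controls and from 4.0 to 4.22 in AR113Q mice. Lpin1, a phosphatidate phosphatase that also coactivates Ppara with PGC1α, fell by 0.68 ± 0.10 (SE, 0.000159) and 0.75 ± 0.11 (SE, 0.000104). The acetyltransferase Crebbp fell by 0.38 ± 0.078 (SE, 0.00257) and 0.29 ± 0.082 (SE, 0.0203), Rxrb fell by 0.33 ± 0.082 (SE, 0.00959) on the HFD, and the deacetylase Sirt1 rose by 0.34 ± 0.075 (SE, 0.00405) on the NCD. Ppargc1a, which encodes PGC1α, was at 0.21 ± 0.25 (SE, 0.660) and 0.57 ± 0.27 (SE, 0.170), and Pparg, the adipocyte receptor, at 0.27 ± 0.17 (SE, 0.358) and -0.16 ± 0.19 (SE, 0.622). The median of the list was -0.064 on the NCD and -0.13 on the HFD, beside -0.057 and -0.081 over all genes.

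A wider list of 32 PPAR targets of muscle, of which 31 were tested and Fgf21 did not pass the filter, had more values above 0 on the NCD than on the HFD, a difference of which the interaction test called no gene. On the NCD 27 of the 31 had values above 0, beside 42.1% of all genes. The median of the list was 0.35 against -0.057 over all genes, and 5 rose and 1 fell, beside 17.4% of all genes called. On the HFD 16 were above 0, beside 39.5% of all genes. The median of the list was 0.0016 against -0.081, and 2 rose and 5 fell, beside 17.9% of all genes called. The share of the list that was called is near that of all genes in both diets. Catalase (Cat), a peroxisomal enzyme, rose by 0.82 ± 0.14 (SE, limma adjusted p = 0.000711) on the NCD and 0.58 ± 0.15 (SE, 0.0124) on the HFD. Cpt1a, the carnitine acyltransferase of liver and many other tissues, rose by 0.43 ± 0.11 (SE, 0.00866) and 0.58 ± 0.11 (SE, 0.00164). Plin2, a lipid droplet coat protein, rose by 0.62 ± 0.18 (SE, 0.0206) and Acadl, a long-chain acyl-CoA dehydrogenase, by 0.62 ± 0.21 (SE, 0.0490), both on the NCD. Acadm, the medium-chain enzyme, was at 0.34 ± 0.15 (SE, 0.153) on the NCD and -0.031 ± 0.16 (SE, 0.929) on the HFD.

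Vldlr, a receptor for triglyceride-rich lipoproteins, was the only gene of the list called lower on the NCD, and it was called lower on the HFD too. It fell by 1.10 ± 0.14 (SE, limma adjusted p = 4.11e-05) on the NCD and by 1.33 ± 0.15 (SE, 1.43e-05) on the HFD. On the NCD the controls lay between 4.69 and 5.14 and the AR113Q samples between 3.66 and 4.0. On the HFD the fatty acid transporter Slc27a4 also fell, by 0.52 ± 0.15 (SE, 0.0217), as did Mlycd, which removes the malonyl-CoA that blocks Cpt1b, by 0.37 ± 0.11 (SE, 0.0239), Pdk2 by 0.33 ± 0.094 (SE, 0.0222) and Ehhadh by 0.33 ± 0.11 (SE, 0.0422). No gene of this list was called by diet within either genotype. The interaction values of 28 of the 31 genes were below 0, with a median of -0.33 against -0.020 over all genes, and 0 were called. The part of CTR-HFD replicate 3 in these interaction values was not tested.

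**Figure D5:**
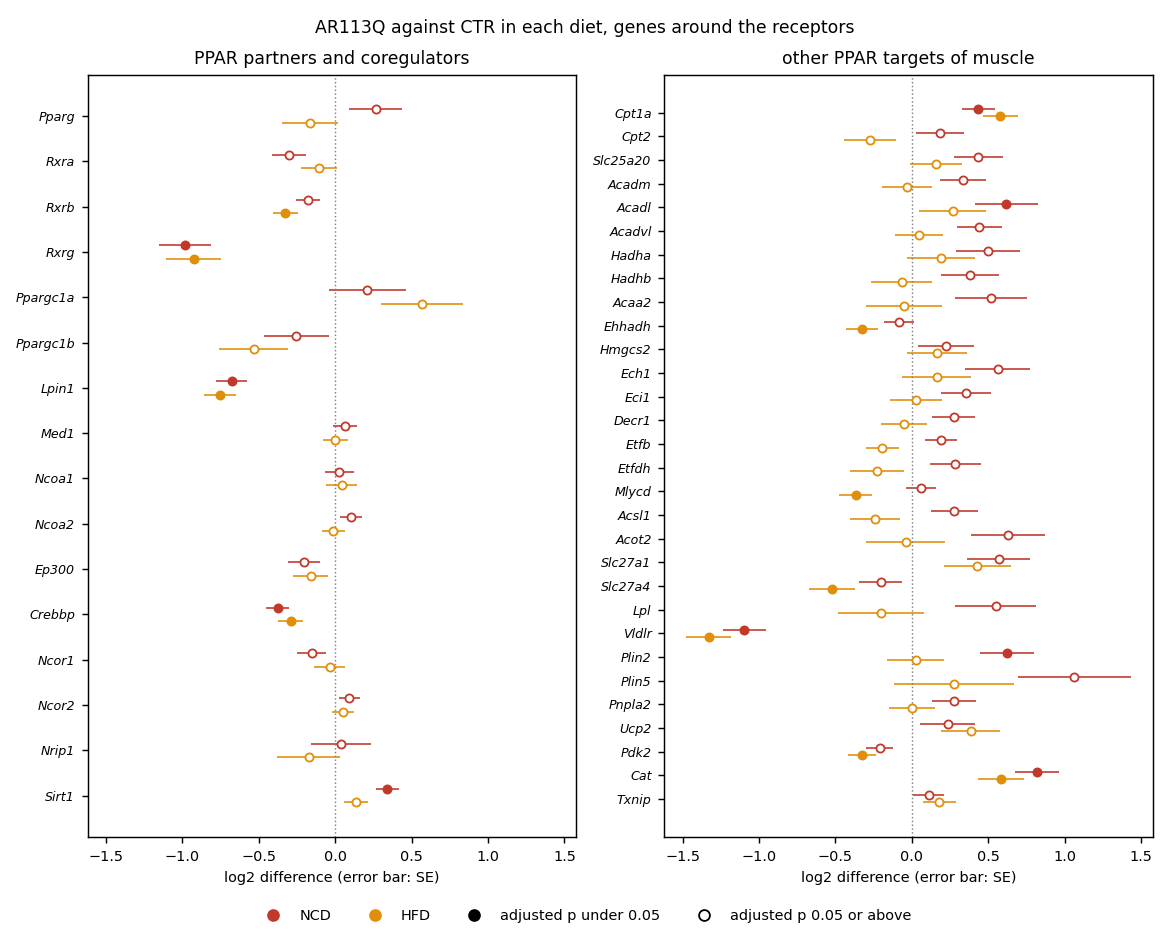
Log2 differences between AR113Q and CTR (points, with SE) for 16 partners and coregulators (left) and 30 of the further targets (right), red for the NCD and orange for the HFD. Filled points have an adjusted p under 0.05, as for Rxrg, Lpin1, Crebbp, Vldlr, Cpt1a and Cat in both diets.

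PPAR and RXR bind as a pair to a direct repeat of the hexamer AGGTCA with 1 base between the copies. RefSeq promoter windows (GRCm38.p6) were found for 7 of the 9 genes, Acot1, Cd36, Fabp3, Pdk4, Ppara, Ppard and Ucp3. In the 250 bases before the start site, searched on both strands, the repeat AGGTCANAGGTCA was in 0 of the 7 and in 0.0335% of 32851 windows, and the looser AGGNCANAGGNCA, which includes the first, in 0 of the 7 and in 0.338%. The single hexamer, which the repeat contains, was in the windows of Cd36 and Ucp3 and in 14.0% of all windows. The 2 windows that hold it are printed with the hexamer, or its reverse complement, in capitals, Cd36 from chr5:17835897-17836146 (minus strand) and Ucp3 from chr7:100472741-100472990 (plus strand). In the main fit with all samples, neither gene passed the test in any comparison. These matches are letters in a short window and say nothing of binding.
Cd36: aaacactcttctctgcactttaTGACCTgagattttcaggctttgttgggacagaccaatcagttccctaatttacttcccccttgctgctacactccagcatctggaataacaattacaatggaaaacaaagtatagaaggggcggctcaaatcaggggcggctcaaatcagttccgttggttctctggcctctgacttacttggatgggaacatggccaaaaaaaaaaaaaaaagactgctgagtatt
Ucp3: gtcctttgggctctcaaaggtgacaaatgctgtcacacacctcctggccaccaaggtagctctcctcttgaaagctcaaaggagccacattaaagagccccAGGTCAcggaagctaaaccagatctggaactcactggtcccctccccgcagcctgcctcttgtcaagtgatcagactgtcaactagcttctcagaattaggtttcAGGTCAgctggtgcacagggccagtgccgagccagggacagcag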

How the data were processed

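Quadriceps RNA was labelled with Cy3 and hybridised to Agilent 4x44K mouse arrays, 1 sample per array. Per the file headers and the submitters' processing notes, the deposited scanner files hold signal intensity from Agilent Feature Extraction 10.7.3.1, with background subtracted, and a log2 value table that the authors made with limma. That table is used as an alternative only: its column medians are 7.59 to 7.65, it correlates with the scanner log2 values at r = 0.979 to 0.982, it holds 25944 probes and 9 of the 14 probes read here, and its normalization is not given in the sources used here. Here, log2 intensity minus each array's 75th percentile was averaged over spots of a probe, 43020 spots giving 39429 probes. Control spots and outlier flags were left out. Probes well above background in at least 0.5 of their spots on at least 4 arrays were kept (32026 probes, 24741 gene names). The 4 groups entered 1 linear model (limma 3.58.1, R 4.3.3) without a block, p-values were adjusted by Benjamini-Hochberg over all tested probes, and the code was first tested on simulated data. Between 67.1% and 80.1% of probes stood above background per array, and the number of arrays limits the precision. Genes were read by their brightest tested probe. The genes and lists were chosen with earlier results of these data known. Named genes were the 9, all their probes, and, from each further list, up to 5 called genes per direction with the smallest p, with Pparg, Ppargc1a and Acadm always; the 5 nearest genes of Ppara and Pdk4; and marker genes where a list is described. Permutation tests of correlations used 100000 resamples within groups. Replicate numbers matched the slide for 18 of 19 arrays. In the wider target list, 1 gene is counted but not reported here by name.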

Additional observations from a re-analysis of the deposited data

Results flagged for a closer look

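In 3 of 56 tests of a probe within a group, 1 sample lay far from the others of its group by Dixon's test, about the 1 in 20 that chance gives. All 3 were in AR113Q-NCD. Ppara probe 2 was at -0.092 in replicate 5, with the next sample at 0.53. Cpt1b probe 1 was at 4.55 in replicate 4, where the other 4 samples lay at 4.72 or above. Cd36 was at 3.05 in replicate 3, with the next at 2.59. The far values of Ppara and Cpt1b are the lowest of their group, and that of Cd36 the highest.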

How the results depend on the processing

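Of the 8 counts of called genes, those of CTR-HFD against CTR-NCD, AR113Q-HFD against AR113Q-NCD, HFD against NCD and the interaction were 0 under every alternative run. AR113Q-NCD against CTR-NCD, with 2 called, gave 0 with normexp background correction and with no filter on dim probes, 1 with array median centring, the authors' value table (which holds 7 of the 9 brightest probes), slide as a block and the replicate block, 3 with quantile normalization and array weights, where Cpt1b joins the receptors, 3 with each gene read by its probe of smallest p, and 0 to 2 when single samples were left out. Averaged over diets, with 2 called, the count was 0 with normexp, 1 with median centring, the authors' table and slide as a block, 3 with quantile normalization and trended robust eBayes (Cpt1b added) and with the probe of smallest p, and 1 to 4 without single samples. AR113Q-HFD against CTR-HFD, with 0, gave 1 (Ppard) with quantile normalization and the authors' table. AR113Q-HFD against CTR-NCD, with 0, gave 3 with quantile normalization, 2 with the authors' table, 1 with normexp, with probes above background on all 19 arrays, with slide as a block and with trended robust eBayes, and 0 to 1 without single samples. Ppara on the NCD ran from 0.78 to 1.33 and Ppard from 0.18 to 0.46 over 30 alternatives, never below 0, and passed in 12 and 14 of them. Normexp moved the median of all probes by -0.50 in that comparison, so that its values stand 0.50 higher relative to it. The 20 probe differences with an unadjusted p under 0.05 kept their sign in every alternative, and the other 92 changed sign in 139 of 2693 values. Same-numbered samples deviated together in 20 of 27 pairs (correlation over 0.1, median 0.24, lowest -0.21). Of the 19 samples, 14 correlated best with their own number, which is the slide number for 18 of them. This shared part is left out of the main fit, and the fits with slide or replicate as a block are given as alternatives. Averaged over diets, the replicate block called 2, Ppard and Ucp3 (-0.25, limma adjusted p = 0.0479), the latter lower in AR113Q, and not Ppara (0.0604). The cause of these changes was not tested, and the shares of all genes called in the alternative fits are not given.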
